A study of Mus musculus with 6 samples.

Results

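The genes examined were 65 genes for enzymes that add or remove methyl groups on histones or remove acetyl groups from them, together with core subunits of Polycomb repressive complex 2 (PRC2). They were taken by a rule on names that used no measured value, as protein-coding genes whose symbol begins with Kdm, Kmt, Setd, Hdac, Sirt, Suv39h or Nsd followed by a digit, plus Ezh1, Ezh2, Eed, Suz12, Jarid2, Dot1l, Ehmt1, Ehmt2, Ash1l and Setdb1. The 65 genes stood among 21269 genes of the table, of which 14262 were protein coding. HL-1, a single cell line derived from mouse atrial cardiomyocytes, was cultured with norepinephrine and transfected with an LNA gapmer, a short modified antisense oligonucleotide that directs RNase H to cut its target RNA. Cells received 50 nM of LNA Control (3 libraries) or of LNA Malat1 (3 libraries), the latter directed at the long noncoding RNA Malat1. They had been seeded 24 hours before transfection and were collected 48 hours after it, and total RNA was sequenced. A change brought by the oligonucleotide itself and a change brought by loss of Malat1 cannot be told apart with 1 gapmer per group.

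Histone methyltransferases, most of them SET domain proteins, place methyl groups on single lysines of histone tails, where the mark's effect depends on the residue: H3K4 methylation accompanies active promoters and enhancers, H3K36 methylation the bodies of transcribed genes, and H3K9 and H3K27 methylation silent chromatin. Demethylases of the amine oxidase and Jumonji (JmjC) families take these groups off again. Histone deacetylases remove acetyl groups, most with zinc as a cofactor and the sirtuins with NAD. In heart muscle the class IIa deacetylases are known as brakes on MEF2 transcription factors, and PRC2 as a repressor of fetal and noncardiac genes. Malat1 is an abundant nuclear RNA of nuclear speckles.

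Each value below is a normalized count, the number of reads assigned to a gene divided by a library's scaling factor. The normalized counts of a library summed to between 4758777 and 4921406. The Malat1 RNA itself had 5051, 5197 and 4369 normalized counts in the LNA Control libraries and 2833, 2792 and 2732 in the LNA Malat1 libraries, 57.2% of the control level (log2 fold change -0.80, SE 0.07, adjusted p = 7.5e-06). Of 12 cardiomyocyte markers, 10 reached a mean of 5, with sums of 8223 to 8505 in LNA Control and 7669 to 7749 in LNA Malat1, although Myh6 lay between 0 and 7 and Nppa was not listed. Ryr2 and Atp2a2 made up most of each sum, and the markers did not move together. Tnnt2 and Myl4 were higher in every LNA Malat1 library than in any control, and Gata4, Tbx5 and Ryr2 were lower. Markers of other cells were low except fibroblast Col1a1. The fibroblast sum was 1953 to 2530 in LNA Control and 1824 to 1957 in LNA Malat1, nearly all of it Col1a1. Col1a2 lay between 0 and 1, Pdgfra between 30 and 48, and Tcf21 was not listed. The sums were 19 to 28 against 32 to 35 for endothelial markers, 14 to 25 against 36 to 47 for leukocyte markers and 128 to 137 against 156 to 166 for smooth muscle markers. These markers did not all move together either. Cnn1 rose from 115, 106 and 116 to 149, 148 and 148, while Myh11 fell from 18, 22 and 21 to 17, 16 and 8. The endothelial markers Pecam1 (4, 10 and 1 against 17, 8 and 9) and Tek (23, 18 and 18 against 17, 24 and 26) overlapped between groups. The part of other cells in the results was not tested, and fewer cells of a type and less RNA per cell cannot be told apart in bulk RNA. LNA Malat1 replicates 1 and 3 differed by less than the sampling noise of their reads (chi-square per gene 0.95 over 14522 genes, against 1.77 to 4.18 between LNA Control replicates). LNA Malat1 replicates 1 and 2 gave 1.02, also near that noise, and replicates 2 and 3 gave 1.17. In the genes with the most reads the pairs stood further apart, at 1.11 for replicates 1 and 3 (1754 genes), 1.66 for 1 and 2 (1624 genes) and 2.06 for 2 and 3 (1725 genes). Replicates 1 and 3 were therefore counted as 1 sample in each mean ± SD (n = 3 for LNA Control, n = 2 for LNA Malat1). The limma fit used all 6 libraries, and what changed when the pair was merged is given beside the genes concerned. LNA Control replicate 1 stood apart in some GC-rich members, as described with the H3K4 methyltransferases. The labels number the libraries without saying that they came from separate cultures, so p-values measure the spread between these libraries, which may be technical.

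All 65 genes were expressed above the minimum mean of 5 normalized counts, with means between 18.7 and 2945.3 and a median of 463.8. After LNA Malat1, 1 gene was called upregulated (Kdm4d) and 0 were called downregulated by limma, where a call asks for a change of at least 1.5-fold besides an adjusted p within 0.05. Across all genes tested 8.00% were called higher and 2.92% lower, that is 1252 and 457 genes, a split that became 748 and 718 under quantile normalization. Without the fold minimum, 3 of the 65 were higher (4.62%; all genes 14.3%) and 10 were lower (15.4%; all genes 14.0%), and an unadjusted p under 0.05 was reached by 21 genes (32.3%; all genes 39.8%), 14 of them lower. Among well-expressed genes, those with a mean of at least 50, 12.3% were higher, 20.2% lower and 6.35% called in either direction. None of the 62 such members was called, and the 10 lower ones were a smaller share than that background. The 3 LNA Malat1 libraries were all below the lowest LNA Control value in 15 members (23.1%; all genes 20.8%) and all above the highest in 8 (12.3%; all genes 20.5%). Of 10490 genes with a mean of at least 50, 2986 were wholly below and 1807 wholly above, next to 15 and 7 of the 62 such members. The median log2 fold change of the members was -0.004, next to 0.018 over all genes, and their median absolute change was 0.117, next to 0.194 over all genes and 0.141 over genes with a mean of at least 50. In 46 of the 65 the estimated change was under 0.2 on the log2 scale. The 95% interval of a member's log2 fold change reached 0.138 to each side at the median.

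**Figure D1:**
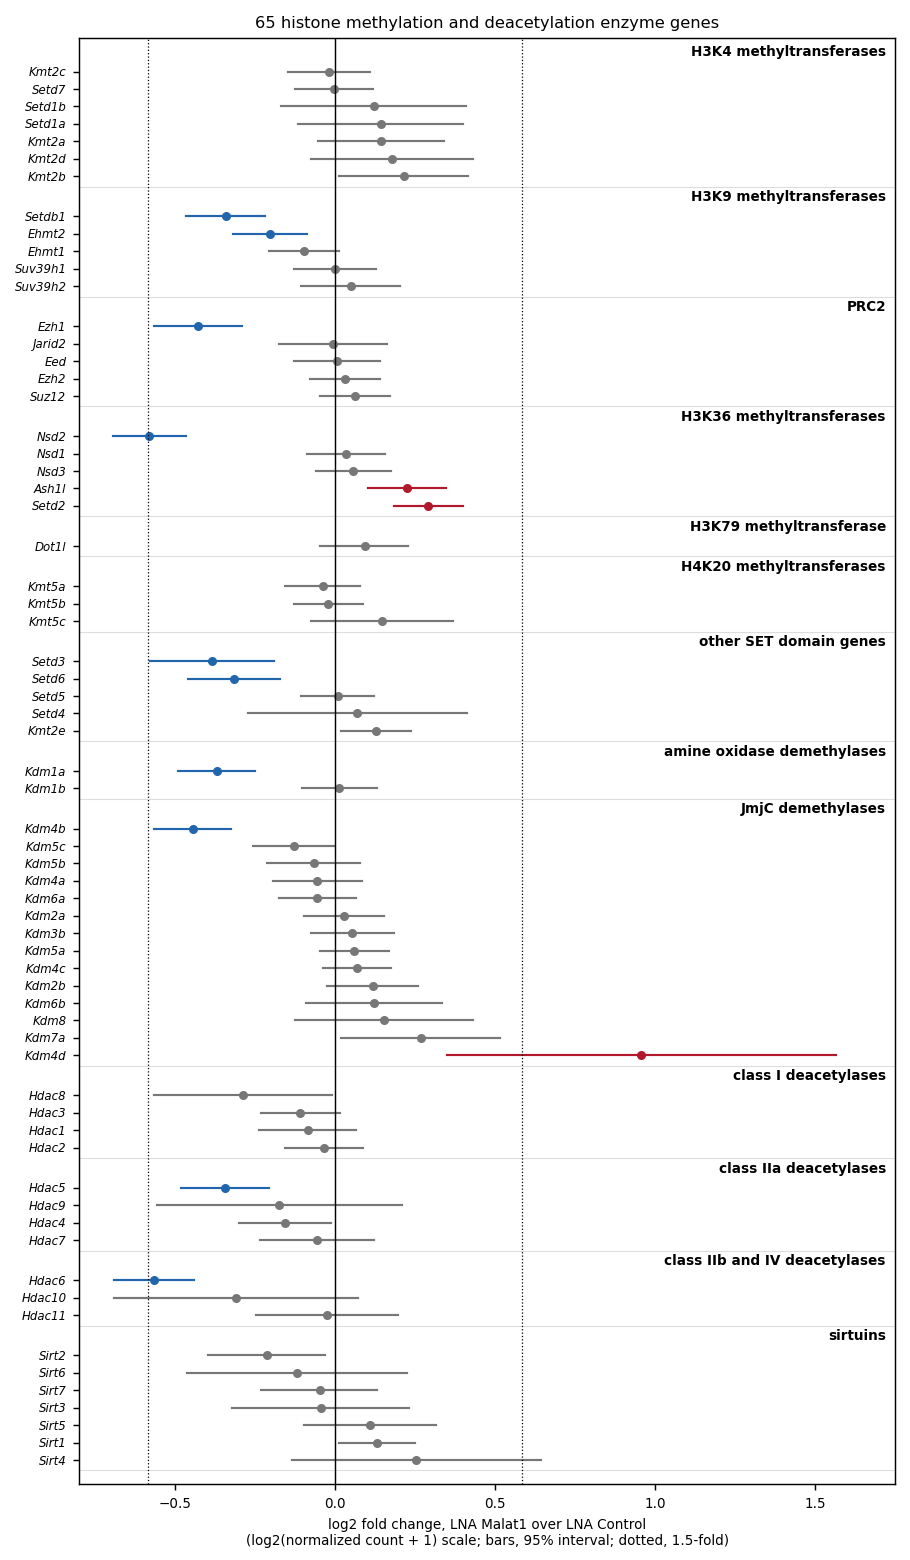
Log2 fold change of LNA Malat1 over LNA Control (x axis, log2(normalized count + 1) scale) for each of the 65 genes, grouped by role, with 95% intervals from limma and dotted lines at 1.5-fold. The 10 blue genes were lower and the 3 red genes higher past the adjusted p of 0.05, and the other genes are gray.

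Of the 5 H3K36 methyltransferases, 1 fell, 2 rose and 2 did not pass the test, next to 14.0% lower and 14.3% higher over all genes. Nsd2, also known as MMSET, which makes the dimethyl mark, had 2471, 2540 and 2403 normalized counts after LNA Control and 1626, 1649 and 1680 after LNA Malat1. All LNA Malat1 libraries were lower, at 66.8% of the control level (log2 fold change -0.58, SE 0.05, adjusted p = 7.5e-06), the largest fall among the members with all 6 libraries and one just short of 1.5-fold. The gene, ENSMUSG00000057406, lies at chr5:33820725-33897975 on the plus strand of mm10, and 0.4% of its exonic bases overlap Nelfa on the opposite strand. Setd2, the enzyme for the trimethyl mark behind elongating RNA polymerase II, rose from 1252, 1288 and 1309 to 1595, 1550 and 1562 (log2 fold change 0.29, SE 0.05, adjusted p = 0.00095). Ash1l, a Trithorax-group enzyme for the dimethyl mark, had 1739, 1779 and 1880 normalized counts after LNA Control, against 2119, 2021 and 2169 after LNA Malat1. Its groups also did not overlap (0.23, SE 0.06, adjusted p = 0.0099). Ash1l no longer passed when LNA Malat1 replicates 1 and 3 were merged (adjusted p = 0.06) or without limma's intensity trend (0.054). It also did not pass when LNA Malat1 replicate 1 (0.06) or replicate 3 (0.067) was left out. Nsd1 had 1205, 1270 and 1218 against 1182, 1322 and 1278, and Nsd3 1511, 1429 and 1568 against 1579, 1521 and 1584, with overlapping groups and adjusted p of 0.7 and 0.47. Within each library the ratio of Nsd2 to Nsd1 was 2.05, 2.0 and 1.97 after LNA Control, against 1.38, 1.25 and 1.31 after LNA Malat1, and Nsd2 to Nsd3 went from 1.64, 1.78 and 1.53 to 1.03, 1.08 and 1.06. These ratios restate the fall of Nsd2 within each library. An exact permutation test gave p = 0.1 for both, the lowest value that 3 libraries per group allow. It is no further support for the fall, and it counted LNA Malat1 replicates 1 and 3 as separate libraries.

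Of the 5 PRC2 genes, 1 fell and the other 4 did not pass the test, next to 14.0% lower over all genes. Ezh1, the catalytic subunit that predominates in nondividing cells, had 264, 262 and 272 normalized counts after LNA Control and 198, 191 and 203 after LNA Malat1, 73.6% of control with no overlap (log2 fold change -0.43, SE 0.06, adjusted p = 0.00034). Ezh2, the catalytic subunit of dividing cells, had 650, 658 and 694 against 686, 679 and 680. Its change was 0.03 with a 95% interval of -0.078 to 0.14 on the log2 scale, and the adjusted p was 0.68. Within a library the ratio of Ezh2 to Ezh1 was 2.46, 2.51 and 2.55 in the LNA Control libraries and 3.46, 3.55 and 3.35 in the LNA Malat1 libraries. The exact permutation test gave p = 0.1, again the lowest value that 3 libraries per group allow. This ratio restates the fall of Ezh1, so the test is no further support for it. Eed, which binds the trimethylated H3K27 product, had 353, 361 and 370 against 387, 365 and 338 (interval of the log2 change -0.129 to 0.141). The structural subunit Suz12 had 1155, 1171 and 1089 against 1175, 1189 and 1197, all slightly above control (0.06, adjusted p = 0.4). Jarid2, a DNA-binding cofactor that belongs to the Jumonji family by sequence, had 265, 238 and 288 against 272, 245 and 268 (-0.01, adjusted p = 0.95).

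The 250 bases before the start annotated by RefSeq are shown for the paralogs Ezh1 and Ezh2, of which only the former passed the test, and for Hdac6, Setd2 and Kdm4d, the members with the largest fall, and the largest rises, for which RefSeq sequence (GRCm38.p6) was at hand. Capitals mark matches, on either strand, to the CCAAT box (the letters CCAAT), the GC box (GGGCGG), the ETS site (CCGGAAG) and the NRF1 site. The TATA box (TATAAA) and the E-box (CACGTG) were searched as well and had no match in these windows.
Ezh1, chr11:101226464-101226713, strand minus: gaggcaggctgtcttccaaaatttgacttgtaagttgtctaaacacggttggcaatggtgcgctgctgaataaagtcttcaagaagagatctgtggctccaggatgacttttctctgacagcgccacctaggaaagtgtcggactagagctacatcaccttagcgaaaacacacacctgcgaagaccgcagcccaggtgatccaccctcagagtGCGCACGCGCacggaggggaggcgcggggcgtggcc
Ezh2, chr6:47595031-47595280, strand minus: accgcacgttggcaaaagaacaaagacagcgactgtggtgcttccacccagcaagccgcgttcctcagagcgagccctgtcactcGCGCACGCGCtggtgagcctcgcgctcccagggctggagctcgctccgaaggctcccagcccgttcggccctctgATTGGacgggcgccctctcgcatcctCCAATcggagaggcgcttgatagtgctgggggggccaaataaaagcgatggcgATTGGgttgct
Hdac6, chrX:7947890-7948139, strand minus: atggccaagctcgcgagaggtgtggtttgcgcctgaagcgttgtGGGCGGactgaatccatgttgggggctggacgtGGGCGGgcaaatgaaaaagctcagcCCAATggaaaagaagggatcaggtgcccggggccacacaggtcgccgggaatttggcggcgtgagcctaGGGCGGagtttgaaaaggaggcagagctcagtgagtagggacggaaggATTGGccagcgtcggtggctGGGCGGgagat
Setd2, chr9:110532347-110532596, strand plus: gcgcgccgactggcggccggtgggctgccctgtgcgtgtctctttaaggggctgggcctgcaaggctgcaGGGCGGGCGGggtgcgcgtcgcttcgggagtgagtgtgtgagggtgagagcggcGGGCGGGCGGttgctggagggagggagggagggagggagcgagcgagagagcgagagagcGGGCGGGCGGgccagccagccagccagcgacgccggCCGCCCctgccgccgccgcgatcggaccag
Kdm4d, chr9:14500483-14500732, strand minus: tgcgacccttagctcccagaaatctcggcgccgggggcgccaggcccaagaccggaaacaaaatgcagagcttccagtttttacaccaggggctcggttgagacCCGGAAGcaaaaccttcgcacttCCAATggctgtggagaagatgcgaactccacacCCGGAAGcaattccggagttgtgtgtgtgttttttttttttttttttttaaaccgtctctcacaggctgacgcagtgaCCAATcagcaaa
In the gene coordinates of the count table the Ezh2 gene begins further upstream, so that the RefSeq start and the Ezh2 window lie within it, the start by 311 bases; the other 4 windows end at the gene's first base. The Ezh1 window held 1 NRF1 match and 14 CpG dinucleotides. That of Ezh2 held 1 NRF1 match as well, with 3 CCAAT boxes and 23 CpGs. Hdac6 had 2 CCAAT boxes and 4 GC boxes, Setd2 had 7 GC boxes, some of them overlapping, and 31 CpGs, and Kdm4d had 2 CCAAT boxes and 2 ETS matches. Windows were found for 50 of the 65 members, and in 27 of these the RefSeq start lay inside the gene as the count table places it. In 8 it lay over 250 bases inside, so that the whole window was within the gene. The GC box occurred in 62.0% of the 50 windows and in 32.7% of all 32817 windows of the same length. The ETS letters occurred in 18.0% and 6.9%, the NRF1 letters in 14.0% and 3.7%, CCAAT in 42.0% and 33.8%, CACGTG in 6.0% of both, and TATAAA in 4.0% and 12.4%. The median number of CpGs was 17 in members and 6 over all windows. The full set of windows was not limited to expressed or protein-coding genes, and whether these shares differ from those of other expressed genes was not tested. A match describes letters in the window and is not evidence of binding.

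Among the 5 H3K9 methyltransferases, 2 fell and 0 rose, next to 14.0% lower and 14.3% higher over all genes. Setdb1, which silences retroelements as a partner of KRAB zinc finger proteins, had 837, 841 and 775 normalized counts after LNA Control, against 683, 624 and 628 after LNA Malat1 (log2 fold change -0.34, SE 0.06, adjusted p = 0.00081). Of its exonic bases, 1.1% overlap Cers2 and 3.6% overlap Gm37500, both on the opposite strand. Ehmt2 (G9a), the enzyme for H3K9 dimethylation in euchromatin, fell from 1137, 1116 and 1042 to 980, 922 and 957 (-0.20, SE 0.05, adjusted p = 0.013). That smaller change did not pass without LNA Control replicate 2 (adjusted p = 0.057), LNA Malat1 replicate 2 (0.072), LNA Malat1 replicate 3 (0.053) or the intensity trend (0.071). Its heterodimer partner Ehmt1 (GLP) had 991, 1025 and 995 against 967, 904 and 942, also without overlap, at an adjusted p of 0.17. Suv39h1 and Suv39h2, which write the trimethyl mark of constitutive heterochromatin, overlapped between groups, with log2 fold changes of 0.00 and 0.05. The H3K79 methyltransferase Dot1l (0.09, adjusted p = 0.31) and the 3 H4K20 methyltransferases Kmt5a, Kmt5b and Kmt5c (-0.04, -0.02 and 0.15) did not pass.

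None of the 7 H3K4 methyltransferases passed the test with all 6 libraries (0 by limma at the adjusted p, 1 at an unadjusted p under 0.05, which 39.8% of all genes reached), and this depended on a single library and, for Kmt2b, on the scaling (adjusted p = 0.038 under quantile normalization). Kmt2d, which marks enhancers, had 2803, 2097 and 1948 normalized counts after LNA Control, against 2744, 2235 and 2701 after LNA Malat1. Kmt2a, the Trithorax homolog MLL1, had 3245, 2660 and 2512 against 3146, 2821 and 3288, and Kmt2b had 683, 590 and 503 against 703, 625 and 720. In Kmt2a and Kmt2b LNA Control replicate 1 lay well above the other 2 controls and among the LNA Malat1 values, and in Kmt2d it lay above every other library. It was also the highest library in the Set1 complex enzymes Setd1b, at 658, 456 and 469 against 621, 467 and 623, and Setd1a, at 229, 156 and 179 against 216, 186 and 214. Of the exonic bases of Setd1a, 51.8% are shared with Gm49388 on the same strand, so its counts are uncertain. Kmt2c (-0.02) and Setd7 (-0.00) showed no such step. With LNA Control replicate 1 left out, 5 of the 7 were higher past the adjusted p of 0.05: Kmt2d by 0.34 (0.0022), Kmt2b by 0.32 (0.0024), Kmt2a by 0.25 (0.0065), Setd1a by 0.29 (0.022) and Setd1b by 0.29 (0.023) on the log2 scale. The number of members higher then went from 3 to 10 (15.4%; 15.4% of all genes), adding Kdm2b, Kdm6b and Kmt2e, while Kdm4d dropped out. Leaving out any other library gave 0 of the 7.

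**Figure D2:**
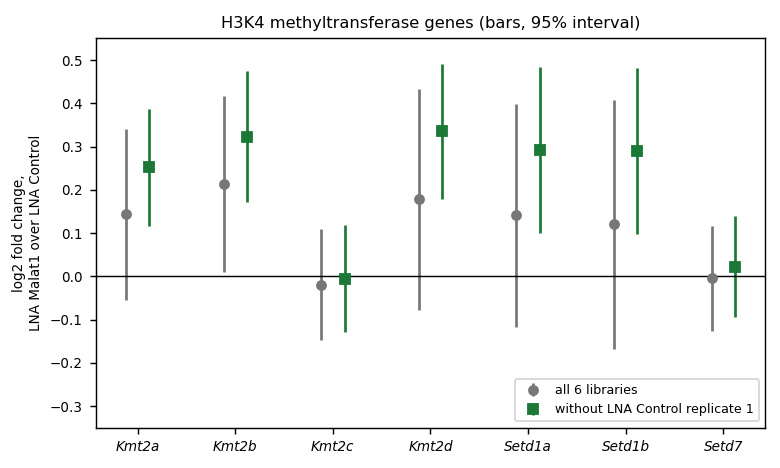
Log2 fold change of LNA Malat1 over LNA Control for the 7 H3K4 methyltransferase genes with all 6 libraries (gray circles) and without LNA Control replicate 1 (green squares), with 95% intervals. Without that library the intervals of Kmt2a, Kmt2b, Kmt2d, Setd1a and Setd1b lie wholly above 0, and those of Kmt2c and Setd7 still span it.

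The members in which this library stood out tended to be GC rich, but Ehmt2 and Hdac7, with the highest GC (60.8% and 60.2%), were not among them. In 9 members (Kdm2b, Kdm6b, Kmt2a, Kmt2b, Kmt2d, Kmt5c, Setd1a, Setd1b and Sirt4) LNA Control replicate 1 was at least 1.1 times each other control, and the GC content of their longest transcripts had a median of 58.4% (50.6% to 60.0%), against 48.3% in the other 56. In 8 of the 9, LNA Malat1 replicate 2 was the lowest of its group, as it was in 32 of the other 56. Across the 65 members the deviation of LNA Control replicate 1 from the other 2 controls went with GC content at r = 0.51 and rho = 0.66, and the deviation of LNA Malat1 replicate 2 at r = -0.52 and rho = -0.54. Across 10488 genes with a mean of at least 50 these were r = 0.47 and -0.2. The points share libraries, so these are descriptions without a test. The log2 fold change of the members itself had r = -0.05 with GC content and 0.02 with the length of the gene on a log2 scale. Transcript GC was 41.4% to 60.8% in the 10 lower members and 44.3% to 51.6% in the 3 higher ones.

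**Figure D3:**
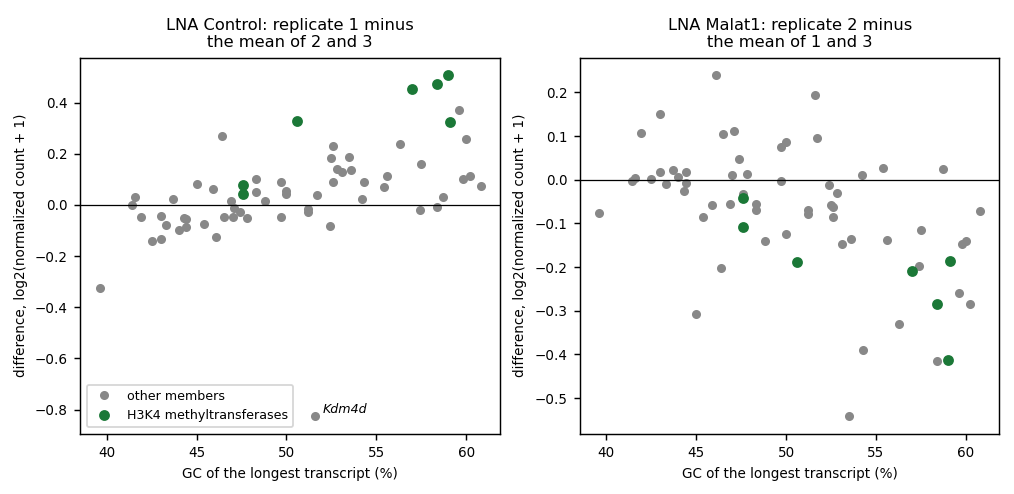
Difference on the log2(normalized count + 1) scale between LNA Control replicate 1 and the mean of replicates 2 and 3 (left), and between LNA Malat1 replicate 2 and the mean of replicates 1 and 3 (right), against the GC content of the longest transcript for each of the 65 genes. H3K4 methyltransferases are green; the left differences rise with GC content and the right ones fall, with r = 0.51 and r = -0.52, and Kdm4d is the lowest point on the left.

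Among the other 5 SET domain genes, Setd3, an actin histidine methyltransferase, had 191, 213 and 204 normalized counts after LNA Control, against 139, 173 and 154 after LNA Malat1 (log2 fold change -0.39, SE 0.09, adjusted p = 0.0066). Setd6, known for methylating the NF-κB subunit RelA, fell from 253, 240 and 242 to 188, 199 and 203 (-0.32, SE 0.07, adjusted p = 0.0037). Both genes thus encode enzymes best known for substrates other than histones. Kmt2e, an MLL-family protein without established methyltransferase activity, had 1238, 1175 and 1197 against 1350, 1280 and 1315, all above control at an adjusted p of 0.078. It passed as higher under quantile normalization (0.014), with library totals set equal (0.024) and without LNA Control replicate 1 (0.04). Setd4 and Setd5 overlapped between groups.

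Of the 16 demethylases, 2 fell (12.5%; all genes 14.0%) and 1 rose (6.25%; all genes 14.3%). Kdm1a (LSD1), the flavin-dependent demethylase of H3K4 that works with CoREST proteins, had 448, 440 and 433 normalized counts after LNA Control and 328, 356 and 338 after LNA Malat1, a fall to 78.2% (log2 fold change -0.37, SE 0.06, adjusted p = 0.00039). Its paralog Kdm1b had 389, 418 and 408 against 408, 412 and 405 (0.01, adjusted p = 0.89), and the ratio of Kdm1a to Kdm1b went from 1.15, 1.05 and 1.06 to 0.8, 0.86 and 0.83. Kdm1b shares 9.2% of its exonic bases with Dek on the opposite strand. Of 14 JmjC genes, 1 fell and 1 rose (7.14% each). Kdm4b, which acts on trimethylated H3K9 and H3K36, had 440, 428 and 434 against 305, 322 and 329, or 434.0 ± 6.0 (SD, n = 3) and 319.5 ± 3.54 (SD, n = 2), and its log2 fold change was -0.45 (SE 0.06, adjusted p = 9.3e-05). Its relatives Kdm4a (846, 811 and 732 against 790, 718 and 788) and Kdm4c (735, 737 and 709 against 762, 770 and 754) did not pass, although Kdm4c passed as higher under quantile normalization (adjusted p = 0.048). The ratio of Kdm4b to Kdm4c was 0.6, 0.58 and 0.61 after LNA Control, against 0.4, 0.42 and 0.44 after LNA Malat1. For this ratio and that of Kdm1a to Kdm1b the exact permutation test gave p = 0.1. Both ratios restate the falls of Kdm4b and Kdm1a, so the test is no further support for them.

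Kdm4d, a member of the same family known mainly from testis, was the only member past 1.5-fold and had the lowest mean normalized count of the 65. It had 8, 14 and 16 normalized counts after LNA Control, against 25, 27 and 22 after LNA Malat1 (0.96, SE 0.28, adjusted p = 0.023), so the groups did not overlap but each value rests on few reads. The call was lost without LNA Control replicate 1 (adjusted p = 0.054) or any of LNA Malat1 replicates 1 (0.084), 2 (0.092) and 3 (0.055), with the pair merged (0.064), without limma's intensity trend (0.052) and under quantile normalization (0.11). The other 12 JmjC genes did not pass, with log2 fold changes from -0.13 (Kdm5c, 1409, 1332 and 1228 against 1217, 1190 and 1214) to 0.27 (Kdm7a, 164, 177 and 239 against 227, 222 and 241). Without LNA Control replicate 3 Kdm7a was higher by 0.43 (adjusted p = 0.0018) and Kdm5c passed as lower, with a log2 fold change of -0.18 (0.011). The H3K27 demethylases Kdm6a (-0.06) and Kdm6b (0.12) were among them.

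**Figure D4:**
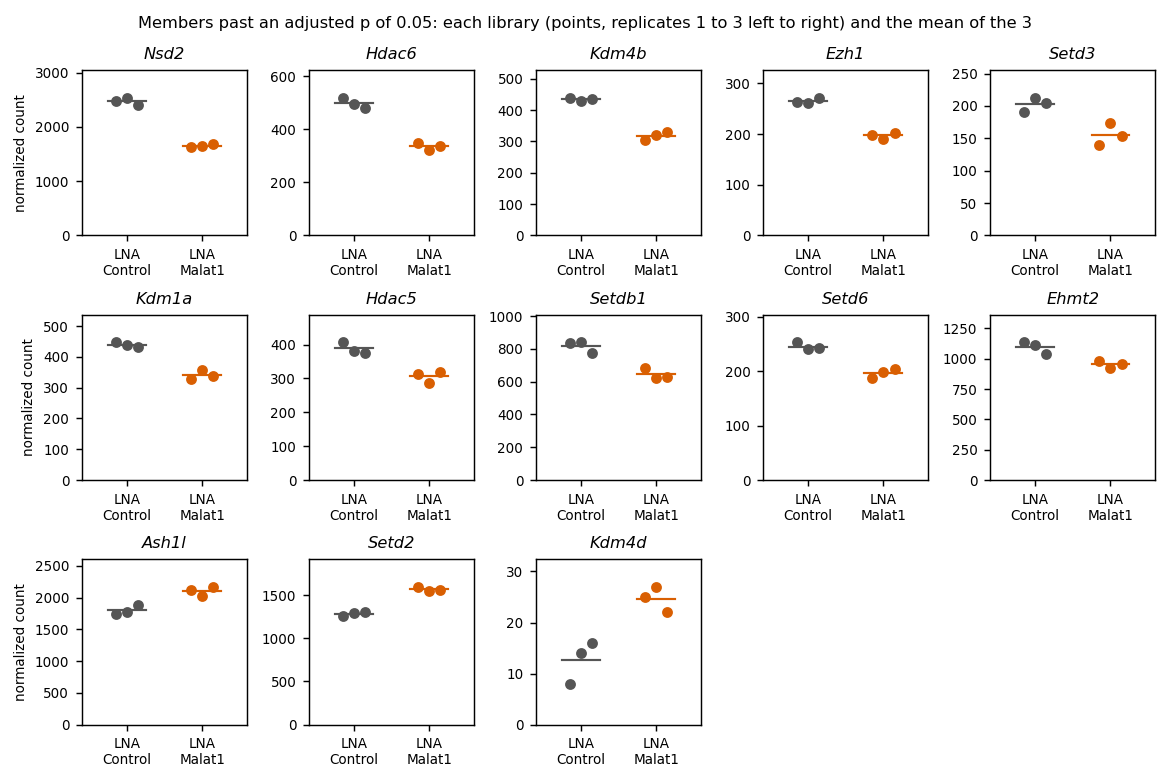
Normalized count of each library (points, replicates 1 to 3 from left to right) and the mean of the 3 libraries (line) for the 13 genes past an adjusted p of 0.05, with each axis starting at 0. The LNA Control and LNA Malat1 points do not overlap in any of the 13 panels, and the counts of Kdm4d lie between 8 and 27.

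All 11 zinc-dependent deacetylase genes had a negative estimate, with a median log2 fold change of -0.156, but 2 passed the test and in 5 the groups did not overlap. Over all genes 47.2% had a negative estimate, 14.0% passed as lower and 20.8% were wholly lower. Of 10490 genes with a mean of at least 50, 56.7% had a negative estimate, 20.2% passed as lower and 2986 were wholly lower. The number of negative estimates was 10 under quantile normalization and 9 with library totals set equal, and 9 without LNA Control replicate 2 or LNA Malat1 replicate 2. Hdac6, a cytoplasmic enzyme that deacetylates tubulin and so acts largely outside chromatin, had 519, 496 and 480 normalized counts after LNA Control and 349, 323 and 337 after LNA Malat1. This was 498.33 ± 19.6 (SD, n = 3) against 333.0 ± 14.14 (SD, n = 2), or 66.8% of control (log2 fold change -0.57, SE 0.06, adjusted p = 1.7e-05). Hdac6 lies at chrX:7930120-7947889 on the minus strand, and no annotated exon of another gene overlaps its exons. Hdac5, a class IIa enzyme that binds MEF2, had 407, 382 and 376 against 314, 285 and 318 (-0.34, SE 0.06, adjusted p = 0.0015).

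The other class IIa genes did not pass. Hdac4 had 420, 356 and 384 against 348, 337 and 354, wholly lower but at an adjusted p of 0.099, passing without LNA Control replicate 2 (0.048), and 22.4% of its exonic bases overlap Gm26720 on the opposite strand. Hdac7 had 335, 305 and 315 against 315, 268 and 339, and Hdac9 53, 41 and 61 against 50, 39 and 47. Class I enzymes, the catalytic cores of the Sin3, NuRD, CoREST and NCoR complexes except for Hdac8, gave 0 of 4 at the adjusted p and 1 at an unadjusted p under 0.05. Over all genes 39.8% reached that unadjusted p. Hdac1 had 205, 202 and 196 against 181, 197 and 190, and Hdac2 had 819, 888 and 807 against 799, 859 and 795, a log2 change with a 95% interval of -0.158 to 0.088. Hdac3 had 382, 389 and 381 against 352, 375 and 342, and Hdac8 98, 91 and 127 against 90, 86 and 80, both wholly lower at adjusted p of 0.18 and 0.11. Hdac10 and Hdac11 overlapped between groups.

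The 7 sirtuins gave 0 at the adjusted p and 2 at an unadjusted p under 0.05, which 39.8% of all genes reached. Sirt1, a nuclear deacetylase of histones and transcription factors, had 423, 441 and 465 normalized counts after LNA Control, against 491, 486 and 477 after LNA Malat1 (log2 fold change 0.13, adjusted p = 0.095). It passed as higher in 3 separate alternatives, namely quantile normalization (0.023), library totals set equal (0.041) and LNA Control replicate 3 left out (0.041). Sirt2, mainly a cytoplasmic deacetylase, had 223, 197 and 244 against 197, 191 and 182 (-0.21, adjusted p = 0.074), and passed as lower without LNA Control replicate 2 (0.028) and under median-of-ratios scaling (0.047). The mitochondrial members Sirt3, Sirt4 and Sirt5 had changes of -0.04, 0.25 and 0.11, and the nuclear Sirt6 and nucleolar Sirt7 of -0.12 and -0.05.

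Levels between genes were compared per kilobase of exon. In LNA Control the members ran from 3.5 (Hdac9) to 230.2 (Suz12) normalized counts per kb, with a median of 79.5. Ehmt2 (200.1), Kmt5a (195.8), Hdac2 (187.3) and Kdm5c (186.1) followed Suz12, while Kdm4d (4.4) was next to Hdac9 at the bottom. The sirtuins were the least abundant of the larger groups, with a median of 20.3 per kb, against 84.1 for the JmjC demethylases and 90.3 for the H3K4 methyltransferases. Ezh2 stood at 99.9 per kb and Ezh1 at 35.8. Nsd2 led the H3K36 methyltransferases at 147.1 per kb in LNA Control and stood at 98.3 in LNA Malat1, below Setd2, which went from 119.3 to 145.5, and Ash1l, which went from 121.3 to 140.3. The 10 lower members spanned much of the range, from 33.6 to 200.1 per kb.

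Genes that work with these enzymes were counted from lists of complexes. Of 89 tested partner genes of 94 listed, 5 were higher and 23 lower at the adjusted p, with a median log2 fold change of -0.05. These were 5.62% and 25.8%, next to 14.3% and 14.0% over all genes and 12.3% and 20.2% over genes with a mean of at least 50. COMPASS partners, which serve the H3K4 methyltransferases, gave 0 higher and 4 lower of 11 (Dpy30, Cxxc1, Men1 and Wdr82). PRC2 partners gave 0 and 1 of 7 (Rbbp4), and the PRC1 genes of the other Polycomb complex 0 and 3 of 16. Histone acetyltransferases, which oppose the deacetylases, gave 0 and 3 of 10 (Kat2b, Kat6b and Kat7). The partners of deacetylase complexes gave 1 and 9 of 27, and among them Rcor2, a CoREST protein that binds Kdm1a, was called lower, at 335, 327 and 302 normalized counts after LNA Control, against 222, 184 and 232 after LNA Malat1 (-0.60, SE 0.09, adjusted p = 0.00027). Histone methyltransferases and demethylases with other names gave 3 and 3 of 14. Smyd3, a SET and MYND domain methyltransferase, had the largest fall of all these genes, with 110.67 ± 8.5 (SD, n = 3) normalized counts after LNA Control and 43.0 ± 1.41 (SD, n = 2) after LNA Malat1 (-1.36, SE 0.14, adjusted p = 1.5e-05). Of the 4 MEF2 factors, Mef2b was called higher, at 9, 7 and 4 against 14, 19 and 13 normalized counts (1.13, SE 0.34, adjusted p = 0.027), which are few reads, and the other 3 did not pass.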

How the data were processed

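Total RNA libraries of HL-1 cells were prepared with a strand-specific kit. Per the labels and the study's methods, the authors trimmed reads (Trimmomatic 0.39), aligned them to mm10 with STAR 2.7.7a, counted reads per gene with featureCounts 1.6.5 and normalized with DESeq2 1.30.0. Whether counting used strand is not given in the sources used here. The deposited values are a score, namely counts scaled by 1 factor for each library, then rounded, so raw-count tests were not run. The factors put the libraries at 4511607 to 5594033 reads. Genes with a mean of at least 5 (15650 of 21269) were tested with limma 3.58.1 (R 4.3.3) on log2(normalized count + 1), two-sided with an intensity trend, adjusted by Benjamini-Hochberg over all genes; fold changes on this scale understate those of low genes. The fit was tested on simulated data. Lengths and GC came from GENCODE M21, with all 65 members at the same position. Members past the adjusted p, the PRC2 genes and the class I and IIa deacetylases were named with every library's value. The members and lists were chosen with earlier results of these data known. 1 gene matching the name rule is not reported here. Alternatives covered scaling, pseudocount, minimum mean, the intensity trend, the fold threshold, a replicate block, the merged LNA Malat1 pair and each library left out.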

Additional observations from a re-analysis of the deposited data

How the results depend on the processing

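Of the 13 members past the adjusted p, 10 passed under every alternative other than the test against 1.5-fold (the exceptions were Kdm4d, Ash1l and Ehmt2), and 0 changed sign, while 20 of the other 52 changed sign in at least 1 alternative. The number called higher went from 1 to 0 under quantile normalization, with a minimum mean of 50, with LNA Malat1 replicates 1 and 3 as 1 sample, without the intensity trend, when tested against 1.5-fold and at 2-fold, and ranged from 0 to 1 with a library left out. Called lower were 1 (Nsd2) under median-of-ratios scaling and 0 to 2 with a library left out (Hdac6 and Nsd2 without LNA Control replicate 3). The number higher at the adjusted p was 6 under quantile normalization, 5 with library totals set equal, 1 with the pair merged, 1 without the trend and 1 to 10 with a library left out, and the number lower 9 to 11. The median log2 fold change was 0.034 under quantile normalization, 0.033 with totals set equal and -0.014 to 0.017 with a library left out. Counting Setdb2 as a member, chosen after seeing the data, made 4 higher. Same-numbered libraries correlated at 0.086, 0.182 and 0.083 in their deviations over 10490 genes. Differently numbered ones correlated at -0.189 to 0.046, so the same-numbered values were the highest. The labels do not say that equal numbers mark pairs, and the main fit had no replicate term. A replicate block gave 1 called higher, 0 called lower, 4 higher and 10 lower, adding Kdm7a (adjusted p = 0.04). The number of libraries and, for Kdm4d, Hdac9, Hdac10, Sirt4 and Sirt6, low counts limit what could be detected.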

Other observations

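Among methyltransferases outside the name rule, Setdb2, a relative of Setdb1, had 353, 394 and 363 normalized counts after LNA Control, against 407, 448 and 434 after LNA Malat1, all higher (log2 fold change 0.22, SE 0.06, adjusted p = 0.021 by limma), while Setdb1 was lower in every LNA Malat1 library. Phf8, a JmjC demethylase linked to H3K9 and H4K20, had 528, 508 and 472 against 620, 555 and 633 (0.26, adjusted p = 0.0097), and Smyd5 had 273, 291 and 288 against 341, 327 and 312 (0.20, adjusted p = 0.027). These 3 were the higher genes of their list of 14 and were named after their values were seen.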
